A study of Mus musculus with 8 samples.

Results

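The carboxylesterase genes of the mouse were followed in endometrium from WT and *Thra1PV/+* mice. The members were 9 genes of the *Ces1* and *Ces2* subfamilies, *Ces1d*, *Ces1f*, *Ces1g*, *Ces2a*, *Ces2b*, *Ces2c*, *Ces2e*, *Ces2f* and *Ces2g*, found by gene symbol among the 52325 genes of the deposited count table. They were chosen by the measured counts of *Ces2f*, which in *Thra1PV/+* endometrium all lay above those in WT endometrium, so the genotype difference of *Ces2f* is given as a description with no test. For the other members the question was whether the neighbours of *Ces2f* on the chromosome differed as well. Of the 9 members, 7 passed the filter on low counts that left 18174 genes of the whole table, and *Ces1g* and *Ces2a* did not.

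Frozen uterine sections were laser-microdissected for endometrium, and RNA was sequenced from 4 WT and 4 *Thra1PV/+* females, 1 library per mouse, all in metestrus. In the *Thra1PV/+* mice, 1 allele of *Thra*, the gene of thyroid hormone receptor alpha, has the PV mutation. The mutant receptor is dominant negative and is present in every tissue that expresses *Thra*, so the endometrium is not the sole site of the mutation. The ages of these mice are not given in the sources used here. The libraries held between 48791602 and 59818887 estimated counts, at which 3 counts correspond to 0.0525 to 0.0628 CPM (counts scaled to a common library size). CPM values include TMM scaling, a normalization for library composition, and they compare 1 gene between libraries but not different genes, since they do not allow for gene length.

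Carboxylesterases are enzymes of the endoplasmic reticulum that cleave ester, amide and thioester bonds. They are best known from liver and intestine, where they activate or clear ester drugs and toxins and hydrolyse lipid esters such as triacylglycerols. Broadly, enzymes of the *Ces1* subfamily prefer esters with a small alcohol group and a large acyl group, and those of the *Ces2* subfamily prefer the reverse. In the mouse both subfamilies grew by tandem duplication, so that each forms a row of similar genes on chromosome 8. In the GENCODE M21 annotation of GRCm38 the *Ces1* cluster spans chr8:93020214-93379725 and the *Ces2* cluster spans chr8:104734003-105021178, 11.4 Mb apart.

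*Ces2e*, *Ces2f* and *Ces2g* follow each other on the plus strand toward one end of the *Ces2* cluster, at chr8:104926260-104934672, chr8:104947356-104960047 and chr8:104961718-104969537. All 3 were higher in the mutant, while *Ces2c*, at chr8:104847068-104854483 in the same cluster, did not pass the test. For this reason the promoters of these 4 genes are shown, from 250 bases before the gene start to 50 bases after it. The sequences are from RefSeq on build GRCm38.p6, plus strand, read 5′ to 3′, and lie at chr8:104926010-104926309 for *Ces2e*, chr8:104947106-104947405 for *Ces2f*, chr8:104961468-104961767 for *Ces2g* and chr8:104846818-104847117 for *Ces2c*. The capitals mark the longest run of letters that *Ces2e*, *Ces2f* and *Ces2g* have in common.
Ces2e: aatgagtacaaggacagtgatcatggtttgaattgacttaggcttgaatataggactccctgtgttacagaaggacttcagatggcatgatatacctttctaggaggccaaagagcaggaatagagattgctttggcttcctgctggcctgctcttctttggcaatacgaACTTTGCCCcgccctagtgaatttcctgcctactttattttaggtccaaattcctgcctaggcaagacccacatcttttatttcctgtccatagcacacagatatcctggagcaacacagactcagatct
Ces2f: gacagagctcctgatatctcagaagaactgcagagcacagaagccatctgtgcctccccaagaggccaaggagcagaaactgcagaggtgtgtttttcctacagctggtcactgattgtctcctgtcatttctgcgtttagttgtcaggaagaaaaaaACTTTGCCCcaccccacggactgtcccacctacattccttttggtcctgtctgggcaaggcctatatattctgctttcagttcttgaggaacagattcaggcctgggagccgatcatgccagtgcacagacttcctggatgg
Ces2g: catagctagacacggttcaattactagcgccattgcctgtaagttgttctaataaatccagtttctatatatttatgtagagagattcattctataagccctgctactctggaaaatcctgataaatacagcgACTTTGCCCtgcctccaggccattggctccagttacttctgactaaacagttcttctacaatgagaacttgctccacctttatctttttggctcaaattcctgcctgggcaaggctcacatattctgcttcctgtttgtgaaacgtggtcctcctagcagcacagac
Ces2c: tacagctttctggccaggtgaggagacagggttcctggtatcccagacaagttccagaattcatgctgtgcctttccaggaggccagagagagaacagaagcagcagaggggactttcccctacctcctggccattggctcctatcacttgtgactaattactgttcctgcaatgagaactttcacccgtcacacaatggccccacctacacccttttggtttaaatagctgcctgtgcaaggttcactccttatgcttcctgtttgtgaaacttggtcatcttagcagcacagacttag

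The common run, ACTTTGCCC, has 9 letters and begins 80 bases before the start of *Ces2e*, 92 bases before that of *Ces2f* and 117 bases before that of *Ces2g*. Searched on both strands, it was present in 86 of 32851 promoter windows of the same length, or 0.262%. The run was chosen because *Ces2e*, *Ces2f* and *Ces2g* have it in common, so this percentage cannot test its presence in them. How often windows of other duplicated genes have some run of 9 letters in common was not tested. Among the carboxylesterase promoters in the RefSeq table the run was also present in *Ces2a*, which was barely detected in these libraries. The run was absent from *Ces2c*. The windows of *Ces2b* and *Ces2d-ps* were not matched in that table, so the run was not looked for in them. Tandem duplicates have sequence in common by descent, but a common origin of the run was not tested. In *Ces2g* the run and the bases that follow it are like a stretch of the *Ces2c* window. The bases after the run in *Ces2e* are unlike them. In that stretch the *Ces2c* window reads actttcccc, with c in place of the g of the run. The run in *Ces2g* is therefore not at the place that matches the run in *Ces2e*. The run is a description of these windows and not a site. Of 5 short motifs searched on both strands, neither TGANTCA, the letters that AP-1 factors recognize, nor AGGTCA, the half-site of many nuclear receptors including thyroid hormone receptors, occurred in the windows of *Ces2e*, *Ces2f* or *Ces2g*. TGANTCA was found in 7.81% and AGGTCA in 16.3% of all promoter windows. The GC box GGGCGG occurred in *Ces2e* (35.7% of all windows), and CACCC, the core recognized by Krüppel-like factors, occurred in *Ces2f* and in *Ces2c* (57.5%). TATAAA, present in 13.6% of windows, was in none of these 4, and the window of *Ces2g* held none of the 5 motifs.

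*Ces2f* (ENSMUSG00000062826.7) was present at a trace level in WT endometrium and at a moderate level in *Thra1PV/+* endometrium. Its rounded counts were 744, 1493, 688 and 648 in the 4 mutant libraries and 8, 24, 19 and 16 in the 4 WT libraries. In CPM these were 13.7, 30.3, 14.1 and 11.4 against 0.153, 0.433, 0.378 and 0.335. Mutant library 2 was the highest, well above the other mutant libraries, and the lowest mutant library was still far above the highest WT library. The means were 17.3 ± 8.72 CPM (SD, n = 4) and 0.325 ± 0.122 CPM (SD, n = 4), a log2 fold change of 5.73 (SE 0.50), or 53.0-fold. In WT endometrium every library was above the floor of 3 counts, so the gene was detected there. The size of this difference on a log scale depends on how the low WT values are treated, and was 2.20 on log2(TPM + 1) and 4.47 on log2(TPM + 0.1) of the authors' TPM values.

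*Ces2g* (ENSMUSG00000031877.9), the next gene along the chromosome, rose in the mutant. Its CPM were 31.8, 49.9, 44.0 and 39.8 in the mutant libraries and 4.06, 3.86, 8.59 and 4.79 in the WT libraries. WT library 3 was the highest of its group, and the genotypes did not overlap. The means were 41.4 ± 7.59 CPM and 5.33 ± 2.21 CPM (SD, n = 4 each), a log2 fold change of 2.96 (SE 0.30) or 7.76-fold, with an adjusted p of 0.00582 in edgeR's quasi-likelihood test with Benjamini-Hochberg adjustment over all 18174 genes. Unlike *Ces2f*, *Ces2g* was well above the floor in WT endometrium, where its counts ranged from 213 to 432. It passed the test in each of 19 alternative analyses, with log2 fold changes from 2.53 to 3.40.

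*Ces2e* (ENSMUSG00000031886.14), the gene before *Ces2f* and an enzyme known to hydrolyse acylglycerols, also rose. Its CPM were 8.25, 10.8, 10.5 and 7.48 in the mutant libraries and 0.344, 1.82, 0.338 and 0.314 in the WT libraries. WT library 2 stood well above the other WT libraries, with 101 counts against 15 to 18, and remained below every mutant library. The means were 9.27 ± 1.66 CPM and 0.705 ± 0.746 CPM (SD, n = 4 each), a log2 fold change of 3.71 (SE 0.66) or 13.1-fold, with an adjusted p of 0.0619 in edgeR's quasi-likelihood test. The call was lost, with an adjusted p between 0.103 and 0.189, when any 1 of the 4 mutant libraries or WT library 1, 3 or 4 was left out. Without WT library 2 the log2 fold change was 4.83 with an adjusted p of 0.00414 in edgeR's quasi-likelihood test.

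**Figure D1:**
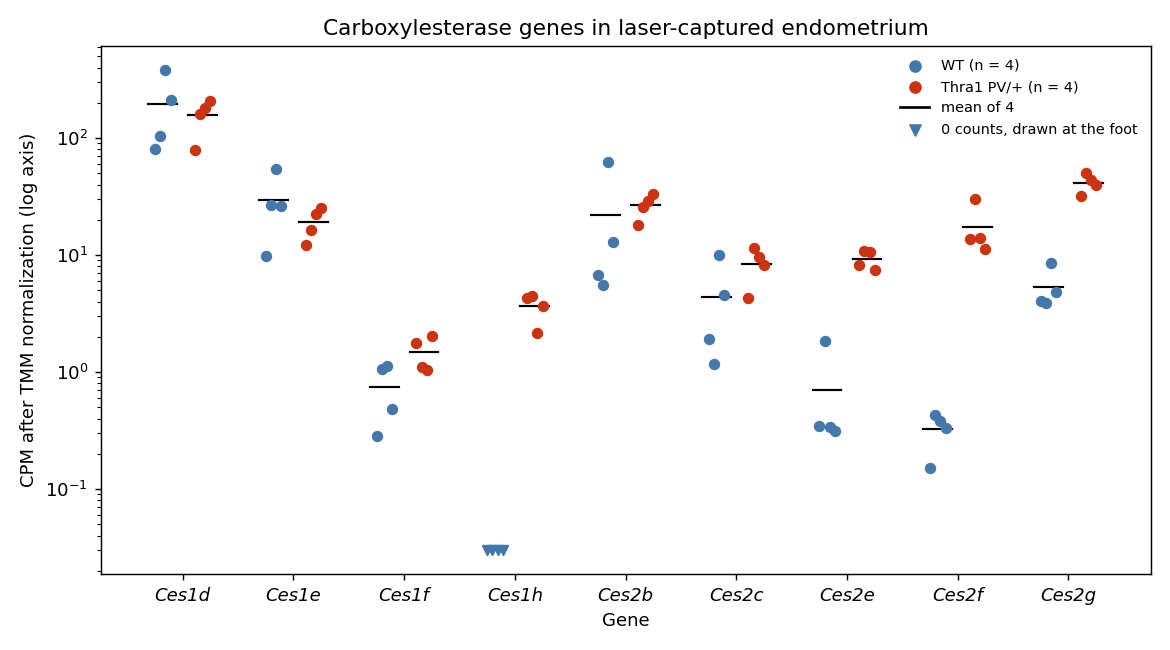
CPM after TMM normalization, on a log axis, of the 7 tested members and of *Ces1e* and *Ces1h* in each library. Blue points are WT and red points *Thra1PV/+* libraries, black bars are means of 4, and triangles mark 0 counts, which a log axis cannot show. The genotypes are separate in *Ces1h*, *Ces2e*, *Ces2f* and *Ces2g* and overlap in the other 5 genes.

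Leaving *Ces2f* aside, 2 of the other 6 tested members, *Ces2e* and *Ces2g*, were called higher in the mutant (adjusted p no more than 0.1 with at least a 2-fold change), and none was called lower. Over all 18174 tested genes, 0.99% were called, 0.924% as higher and 0.066% as lower. *Ces2e* and *Ces2g* were also the 2 of these 6 whose mutant values all exceeded the WT values, where 3.55% of all tested genes did so and 2.49% were lower in the mutant without overlap.

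*Ces2b* and *Ces2c*, toward the other end of the same cluster, did not pass the test. *Ces2b* (ENSMUSG00000050097.6, chr8:104831572-104840093) had 18.1, 25.6, 29.1 and 33.5 CPM in the mutant libraries and 6.79, 5.54, 62.9 and 13.02 CPM in the WT libraries. WT library 3 was above every mutant library and the other 3 WT libraries were below every mutant library. The means were 26.6 ± 6.51 CPM and 22.1 ± 27.4 CPM (SD, n = 4 each), a log2 fold change of 0.27 (SE 0.74) with an adjusted p of 0.947 in edgeR's quasi-likelihood test. Leaving out WT library 3 raised the log2 fold change to 1.67, and leaving out WT library 2 gave -0.0115, so the direction for *Ces2b* is not settled. *Ces2c* (ENSMUSG00000061825.10), an acylglycerol hydrolase of liver and intestine, had 4.30, 11.6, 9.58 and 8.25 CPM in the mutant libraries against 1.93, 1.17, 9.95 and 4.56 CPM in the WT libraries. Here too WT library 3 was among the mutant values and WT library 4 was above the lowest of them. Its means were 8.42 ± 3.06 CPM and 4.40 ± 3.97 CPM (SD, n = 4 each), with a log2 fold change of 0.94 (SE 0.65) and an adjusted p of 0.703 in edgeR's quasi-likelihood test.

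*Ces2a*, the first gene of the cluster, had 0, 2, 2 and 5 counts in the mutant libraries and 0 counts in all 4 WT libraries. Both genotypes were near or under the floor of 3 counts, and no fold change is given. Of the remaining genes of the cluster, *Ces2h* had 0 counts in all 8 libraries and the pseudogene *Ces2d-ps* had at most 13.

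Summed over its 8 genes, the *Ces2* cluster gave 76.1, 128.4, 107.5 and 100.5 CPM in the mutant libraries and 13.3, 12.8, 82.1 and 23.1 CPM in the WT libraries. WT library 3 was above the lowest mutant library, so the sums overlapped. Mean sums were 103.1 ± 21.6 CPM and 32.8 ± 33.2 CPM (SD, n = 4 each), a ratio of 3.14. The makeup of the sum also differed, with no overlap of the genotypes. *Ces2e*, *Ces2f* and *Ces2g* together held 58.3% to 70.9% of the cluster's counts in the mutant and 11.3% to 47.7% in WT libraries, and *Ces2f* alone held 11.3% to 23.6% against 0.46% to 3.38%. The 3 genes summed to 53.7 to 91.0 CPM in the mutant and 4.56 to 9.31 CPM in WT libraries, whereas *Ces2b* and *Ces2c* summed to 22.4 to 41.7 CPM and 6.72 to 72.8 CPM. Within the group of 3 the genes did not differ by the same factor: there were 1.65 to 3.51 *Ces2g* counts for each *Ces2f* count in the mutant libraries and 8.92 to 26.6 in the WT libraries. These shares and ratios use counts that are not adjusted for gene length, include *Ces2f*, and were not tested.

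**Figure D2:**
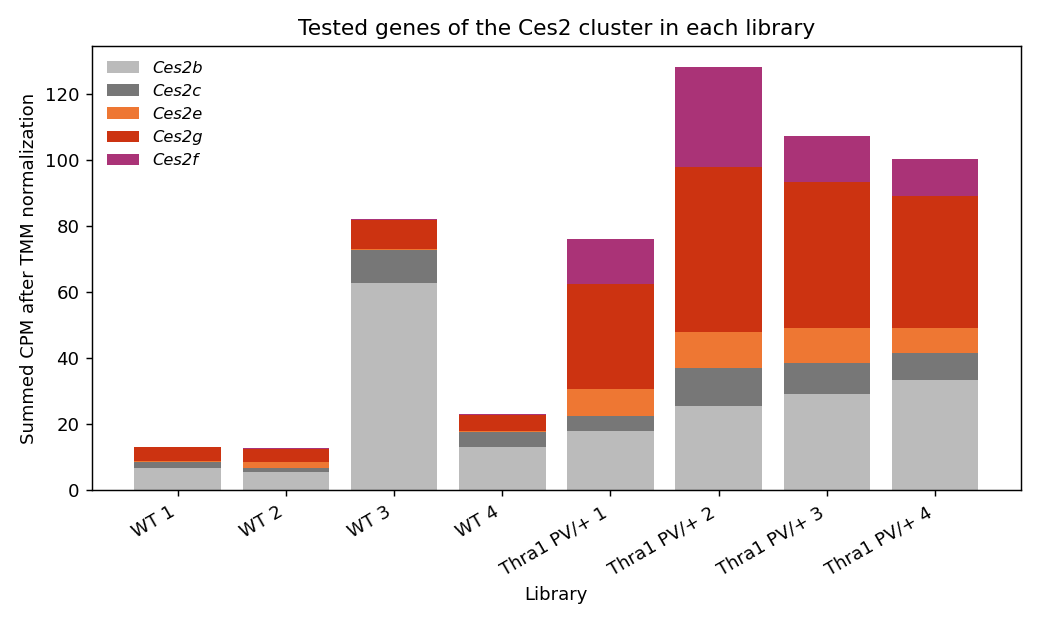
Summed CPM after TMM normalization of the 5 tested genes of the *Ces2* cluster in each of the 8 libraries, stacked by gene and not adjusted for gene length. The stacks of the mutant libraries are largely *Ces2g*, *Ces2f* and *Ces2e*, and the tall stack of WT library 3 is mostly *Ces2b*, at 62.9 CPM.

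The *Ces1* members did not pass the test. *Ces1d* (ENSMUSG00000056973.6, chr8:93166068-93197838, minus strand), a triacylglycerol hydrolase of liver and adipose tissue, had 79.7, 160.0, 182.1 and 208.3 CPM in the mutant libraries and 80.8, 103.6, 381.5 and 212.1 CPM in the WT libraries. WT library 3 was again the highest of all 8, and the other values were interleaved. With means of 157.5 ± 55.5 CPM and 194.5 ± 137 CPM (SD, n = 4 each), the log2 fold change was -0.30 (SE 0.51) with an adjusted p of 0.900 in edgeR's quasi-likelihood test. The sign turned to 0.275 without WT library 3. *Ces1f* (ENSMUSG00000031725.8, chr8:93256236-93279747, minus strand), a second triacylglycerol hydrolase, had 1.78, 1.10, 1.04 and 2.05 CPM in the mutant libraries and 0.286, 1.07, 1.13 and 0.481 CPM in the WT libraries. WT libraries 2 and 3 lay among the mutant values. Its means were 1.49 ± 0.501 CPM and 0.742 ± 0.422 CPM (SD, n = 4 each), a log2 fold change of 1.01 (SE 0.51) with an adjusted p of 0.583 in edgeR's quasi-likelihood test. *Ces1g*, an esterase of the liver involved in lipid metabolism, had 18, 21, 4 and 5 counts in the mutant libraries and 0, 2, 4 and 0 in the WT libraries. It did not pass the filter and received no test, and WT library 3 equalled the lowest mutant library.

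Of the 11 other carboxylesterase genes in the table, *Ces1e* and *Ces1h* passed the filter. *Ces1h* (ENSMUSG00000074156.6, chr8:93351843-93379725, minus strand) lies at one end of the *Ces1* cluster. It had 236, 218, 105 and 208 counts in the mutant libraries and 0 counts in each of the 4 WT libraries. The mutant mean was 3.64 ± 1.05 CPM (SD, n = 4), and against a floor of 3 counts per WT library *Ces1h* was at least 62.2-fold higher in the mutant, with an adjusted p of 0.00801 in edgeR's quasi-likelihood test. It passed the filter on low counts through the mutant libraries alone. An antisense gene lies over *Ces1h*, *Gm45765*, and had 0 counts in all 8 libraries. *Ces1e* (chr8:93201218-93229619, minus strand), also called egasyn for its binding of beta-glucuronidase, had 12.3, 16.5, 22.2 and 25.4 CPM in the mutant libraries and 9.83, 27.0, 54.5 and 26.4 CPM in the WT libraries. Its genotypes overlapped, with means of 19.1 ± 5.84 CPM and 29.4 ± 18.5 CPM (SD, n = 4 each) and a log2 fold change of -0.62 (SE 0.47, adjusted p = 0.732 in edgeR's quasi-likelihood test). Of the genes that did not pass, *Ces1b*, *Ces1c*, *Ces3a*, *Ces3b* and *Ces4a* had 0 counts in all 8 libraries, and *Ces1a* and *Ces5a* had at most 11. Summed over 8 genes, the *Ces1* cluster gave 98.5 to 239.6 CPM in the mutant and 91.0 to 437.2 CPM in WT libraries, with mean sums of 182.1 ± 60.5 CPM and 224.7 ± 154.8 CPM (SD, n = 4 each). *Ces1d* held 78.7% to 88.8% of these counts over all 8 libraries.

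Levels can be compared between genes on the authors' TPM values, which allow for transcript length. In *Thra1PV/+* endometrium *Ces1d* was the highest carboxylesterase at 102.3 ± 34.2 TPM, followed by *Ces2g* at 18.7 ± 3.24, *Ces1e* at 13.04 ± 4.05, *Ces2b* at 10.2 ± 2.77, *Ces2c* at 5.26 ± 2.31, *Ces2e* at 5.11 ± 1.34, *Ces2f* at 4.32 ± 2.41, *Ces1h* at 2.31 ± 0.691 and *Ces1f* at 1.07 ± 0.364 TPM (SD, n = 4 each). Only *Ces1d* was separate from the next gene, and the ranges of all other neighbours in this order overlapped. Compared within each library, *Ces2c* was above *Ces2e*, and *Ces2e* above *Ces2f*, in 3 of 4 mutant libraries. Every other gene was above the next in all 4. In WT endometrium the order was *Ces1d* at 117.3 ± 76.9 TPM, *Ces1e* at 18.2 ± 11.4, *Ces2b* at 7.85 ± 10.1, *Ces2c* at 2.90 ± 2.74, *Ces2g* at 2.52 ± 1.27, *Ces1f* at 0.534 ± 0.332, *Ces2e* at 0.380 ± 0.343 and *Ces2f* at 0.0849 ± 0.0358 TPM (SD, n = 4 each), with *Ces1h* listed at 0. There, the ranges of *Ces1e*, *Ces2b*, *Ces2c* and *Ces2g* overlapped from each to the next, as did those of *Ces1f* and *Ces2e*. The other neighbours in the order were separate. Compared within each library, *Ces2c* was above *Ces2g*, and *Ces1f* above *Ces2e*, in 2 of 4 WT libraries. Every other gene was above the next in all 4. *Ces2g* thus stood at rank 2 of these 9 genes in the mutant and at rank 5 in WT endometrium, by mean TPM.

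Other genes near the clusters were taken from the annotation as all those within 500 kb of either cluster. Around and within the *Ces2* cluster 36 of 67 such genes were tested, 14 had a log2 fold change above 0 and the median was -0.07. By edgeR's quasi-likelihood test none of the 36 was called and 4 had an unadjusted p under 0.05, while DESeq2 called *Lrrc36* and *Cdh16* lower and limma's voom fit with quality weights called these 2 lower and *Gm8798* higher. By comparison 43.2% of all tested genes had a log2 fold change above 0, with a median of -0.05. Over the whole table edgeR's quasi-likelihood test called 180 genes, DESeq2 791 and voom 311. *Gm8798*, a transcribed pseudogene that lies between *Ces2c* and *Ces2e*, had 20, 29, 33 and 62 counts in the mutant libraries and 3, 2, 23 and 3 in the WT libraries. WT library 3 was among the mutant values, and the log2 fold change of 2.14 (SE 0.82) had an adjusted p of 0.444 in edgeR's quasi-likelihood test. Around the *Ces1* cluster 7 of 23 genes were tested, with 4 above 0 and a median of 0.20. None of the 7 was called by edgeR's quasi-likelihood test or by voom and 3 had an unadjusted p under 0.05, while DESeq2 called *Lpcat2* and *Capns2* higher. The genes with the smallest adjusted p were *Lrrc36* near *Ces2* (log2 fold change -2.05, adjusted p = 0.104) and *Capns2* near *Ces1* (2.63, adjusted p = 0.207), and all neighbours named here were named after their values were seen. With 0.99% of all tested genes called, a count of 0 among so few neighbours is near the background and is no result about the neighbourhood.

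**Figure D3:**
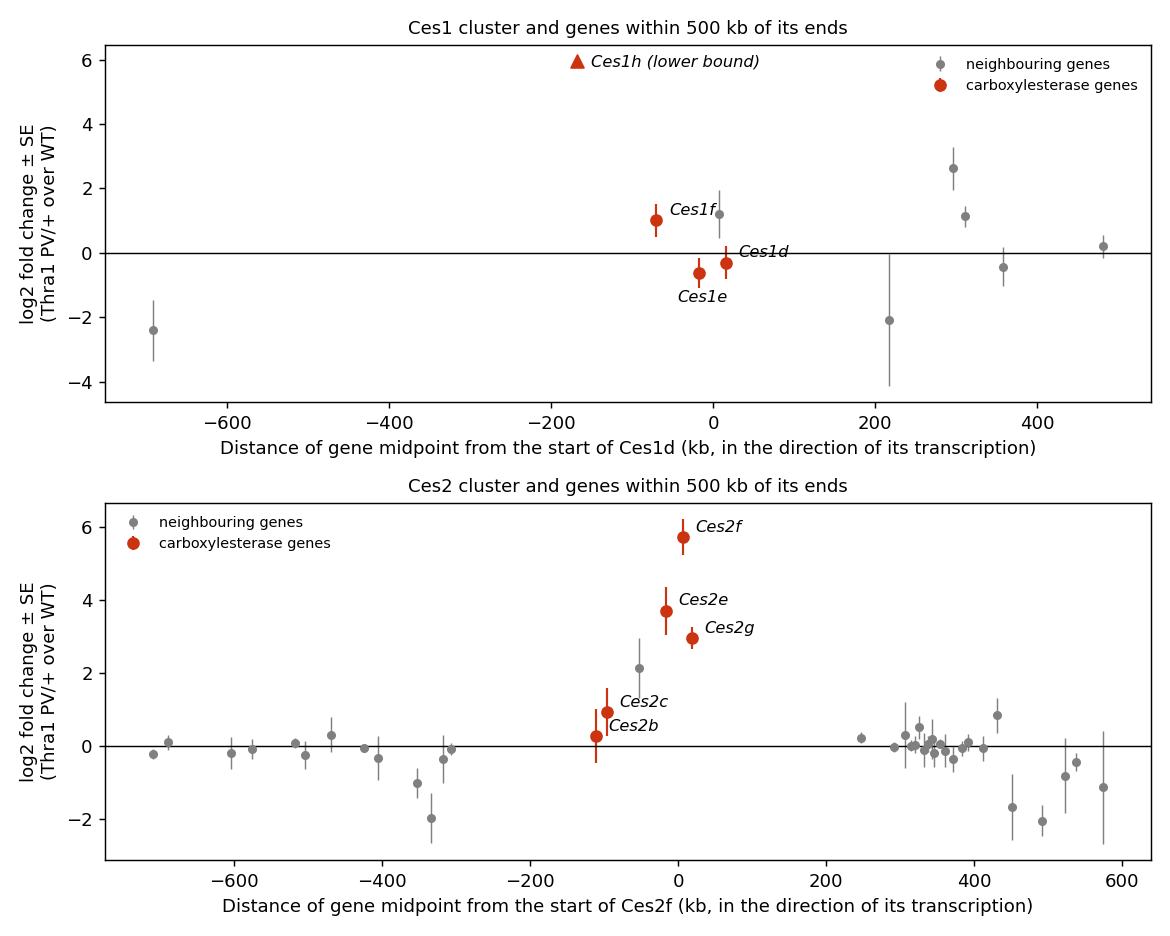
Log2 fold change between *Thra1PV/+* and WT endometrium, with its SE, of each tested gene by the distance in kb of its midpoint from the start of *Ces1d* (upper plot) or *Ces2f* (lower plot), in the direction of transcription of that gene. Red points are carboxylesterase genes and grey points other genes within 500 kb of the cluster, and the triangle is the lower bound of *Ces1h*, whose WT libraries were all at 0. *Ces2e*, *Ces2f* and *Ces2g* stand at 3.71, 5.73 and 2.96 and the other genes around the *Ces2* cluster have a median of -0.07, with single genes such as *Gm8798* at 2.14 and *Lrrc36* at -2.05.

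Markers of cell types moved with the genotype as well. All 10 squamous epithelium markers were above 0 in log2 fold change and 9 of them were called higher. Over all tested genes 43.2% were above 0 and 0.924% were called higher. Of the called markers, *Ivl* and *Dsc3* had at most 0.042 and 0.072 CPM in any WT library. Both passed the filter on low counts through the mutant libraries alone. The summed level of the 10 markers was 3000 to 4600 CPM in the mutant and 1.87 to 66.5 CPM in WT libraries. The basal keratinocyte factor *Trp63*, for example, was at 53.2 to 93.5 CPM in the mutant and 0.458 to 2.04 CPM in WT libraries. Whether the higher *Ces2e*, *Ces2f*, *Ces2g* and *Ces1h* levels have part of their origin in squamous cells was not tested. In bulk tissue of this kind fewer cells of a type and less RNA per cell cannot be told apart. WT library 2, highest of the WT group in *Ces2e*, had a squamous sum of 38.9 CPM, below the 66.5 CPM of WT library 3. Both sums are small beside those of the mutant libraries. The part of squamous cells in the *Ces2e* value of WT library 2 was not tested. Simple epithelium markers summed to 2020 to 4940 CPM in the mutant and 2070 to 5580 CPM in WT libraries, and endometrial stroma markers to 358 to 3110 CPM and 1180 to 3670 CPM. None of these 16 markers was called by edgeR's quasi-likelihood test, 1 of them, *Dcn*, had an unadjusted p under 0.05, and DESeq2 called *Dcn* lower. Both cell types of the endometrium were therefore present in each library, and all 8 stroma markers had a log2 fold change below 0. All 6 smooth muscle markers were below 0 with a median of -4.31 and an unadjusted p under 0.05 in edgeR's quasi-likelihood test but no call by that test, DESeq2 or voom, and with sums of 125 to 638 CPM in the mutant and 529 to 12600 CPM in WT libraries. The 5 blood markers were also all below 0, with a median of -1.78, sums of 14.6 to 29.3 CPM and 17.1 to 179 CPM, and no call by the 3 tools, though 2 had an unadjusted p under 0.05 in edgeR's quasi-likelihood test. The part of these lists in the *Ces* values was not tested. Hepatocyte markers, listed because liver is rich in carboxylesterases, summed to at most 0.695 CPM in the mutant and 1.37 CPM in WT libraries over 8 genes, with *Tat* at 0 in all libraries. Adipocyte markers summed to 4.79 to 28.9 CPM and 8.29 to 28.4 CPM, with *Lep* at 0 in all libraries. The part of either list in the *Ces* values was not tested.

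Within the WT group library 3, which was highest in *Ces1d*, *Ces1e*, *Ces2b*, *Ces2c* and *Ces2g*, also stood at one end of the WT group in other transcripts. Uterine gland markers summed to 16190 CPM in it and 12460 CPM in WT library 4, against 3028 and 1793 CPM in WT libraries 1 and 2, with *Ltf* making up most of each sum. Not all gland markers followed *Ltf*: in WT library 3 *Cxcl15* was at 0.26 CPM against 61.0, 122.1 and 40.5 CPM in WT libraries 1, 2 and 4, and *Foxa2* was at 12.2 CPM, the lowest of the WT group. Simple epithelium markers summed to 5267 and 5580 CPM in libraries 3 and 4 against 2072 and 2923 CPM in libraries 1 and 2. WT libraries 1 and 2 held more stroma transcript, at 3538 and 3671 CPM against 1182 and 1376 CPM, and library 1 held 12640 CPM of smooth muscle transcript where no other library passed 1094 CPM. The part of these differences in the *Ces* values was not tested. With WT libraries 3 and 4 both left out, *Ces2g* kept its call at a log2 fold change of 3.40 (adjusted p = 0.0232 in edgeR's quasi-likelihood test), *Ces2f* was at 5.90, *Ces2e* was at 3.12 without a call (adjusted p = 0.145) and *Ces2b* was called at 2.12 (adjusted p = 0.0638). *Ces1d* was then at 0.792 without a call (adjusted p = 0.335).

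**Figure D4:**
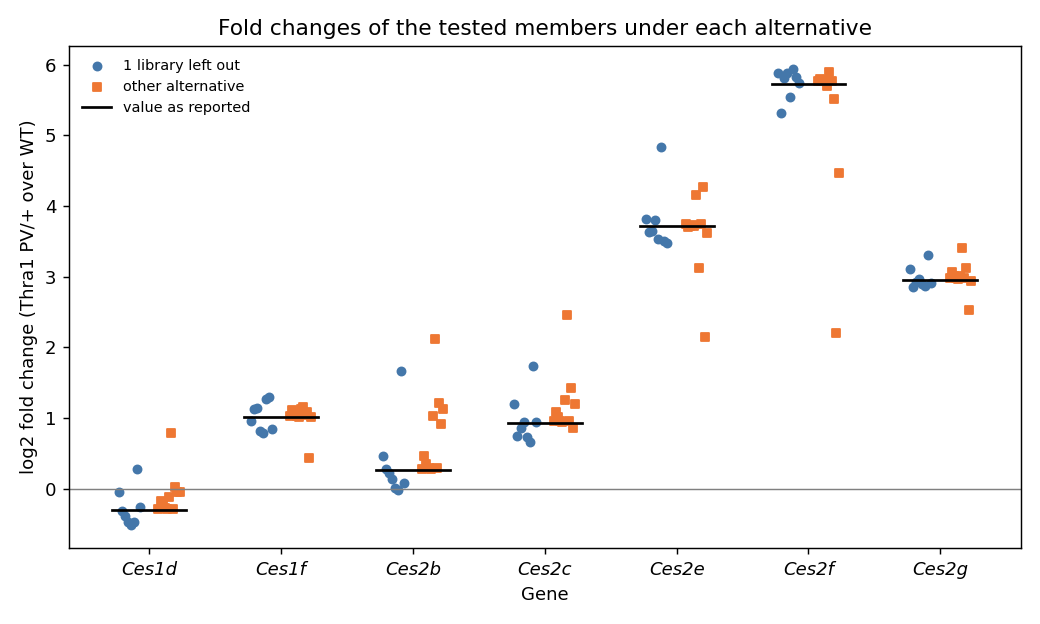
Log2 fold change of the 7 tested members between *Thra1PV/+* and WT endometrium under each alternative. Blue points leave out 1 library, orange squares are the other alternatives and black bars are the values reported above. *Ces2g* stays between 2.53 and 3.40 and *Ces2e* between 2.15 and 4.83, whereas *Ces1d* and *Ces2b* fall on both sides of 0.

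Genes of related pathways were compared as lists. Among lipid ester hydrolases, such as *Pnpla2*, the first enzyme of triacylglycerol breakdown, and *Lipe*, hormone-sensitive lipase, 11 of 14 were tested and 3 had a log2 fold change above 0, with a median of -0.18. No gene of this list was called by edgeR's quasi-likelihood test, DESeq2 or voom, and 0 had an unadjusted p under 0.05 in edgeR's quasi-likelihood test. *Lipe* was at 30.3 ± 7.39 CPM in the mutant and 53.9 ± 41.6 CPM in WT endometrium (SD, n = 4 each), a log2 fold change of -0.83 (SE 0.47, adjusted p = 0.636 in edgeR's quasi-likelihood test). For ester synthesis and lipid droplets 14 of 16 genes were tested, 8 were above 0 and the median was 0.12. Here too none of the 3 tools made a call, and 1 gene, *Plin4*, had an unadjusted p under 0.05 in edgeR's quasi-likelihood test. The lipid droplet coat gene *Plin2*, at 80.3 ± 17.5 CPM and 71.3 ± 5.65 CPM, had a log2 fold change of 0.17 (SE 0.17). With 0.99% of all tested genes called, a count of 0 in lists of this size is near the background.

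Of all tested genes, 0.99% were called and 43.2% had a log2 fold change above 0, with a median of -0.05. Other esterases and phase I enzymes of drug metabolism gave 1 call among 21 tested genes of 28, with 11 above 0 and a median of 0.0047. The call was *Aldh3a1*, an aldehyde dehydrogenase of cornea and other stratified epithelia, at 6.13, 4.75, 7.05 and 11.7 CPM in the mutant libraries and 0.115, 0.126, 0.0398 and 0 CPM in the WT libraries. The genotypes did not overlap, and the log2 fold change was 6.65 (SE 0.80) with an adjusted p of 0.0130 in edgeR's quasi-likelihood test. This fitted value rests on WT libraries near the floor of 3 counts. Like *Ces1h*, the gene passed the filter on low counts through the mutant libraries alone. DESeq2 and voom called, beside *Aldh3a1*, the cytochrome P450 genes *Cyp4b1*, lower in the mutant, and *Cyp3a13*, higher. Over the whole table DESeq2 called 791 genes and voom 311, more than edgeR's quasi-likelihood test at 180.

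Phase II conjugation enzymes gave no call by edgeR's quasi-likelihood test among 19 tested genes of 24, with 5 above 0 and a median of -0.27, and 5 had an unadjusted p under 0.05. DESeq2 called 2 higher and 3 lower, and voom 1 higher and 2 lower. The same tools called 791 and 311 genes over the whole table, against 180 by edgeR's quasi-likelihood test. The sulfotransferase gene *Sult1d1* had 65.0, 15.1, 15.7 and 32.1 CPM in the mutant libraries and 122.6, 480.6, 277.9 and 92.3 CPM in the WT libraries. Every mutant library was below every WT library, with a log2 fold change of -2.93 (SE 0.68) and an adjusted p of 0.165 in edgeR's quasi-likelihood test. The glutathione transferase gene *Gsta4*, at 127.8 ± 21.9 CPM and 48.6 ± 22.4 CPM (SD, n = 4 each), had a log2 fold change of 1.40 (SE 0.35) and an adjusted p of 0.198 in edgeR's quasi-likelihood test. Of the receptors and factors that regulate drug metabolism 12 of 16 were tested, with 7 above 0 and a median of 0.04. By edgeR's quasi-likelihood test and voom none was called and 2 had an unadjusted p under 0.05 in the former. *Nr1i2* and *Nr1i3*, the xenobiotic receptors PXR and CAR that raise carboxylesterase genes in liver, did not pass the filter and had at most 0.181 CPM and 0.0995 CPM in any library. *Ahr*, the dioxin receptor, was at 50.4 ± 4.86 CPM and 34.2 ± 19.95 CPM (SD, n = 4 each), a log2 fold change of 0.56 (SE 0.40, adjusted p = 0.715 in edgeR's quasi-likelihood test).

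The genes whose variation was most like that of *Ces2f* were sought apart from the genotype difference, on log2 CPM centred within each genotype over the 8 libraries and among the 12132 genes whose log2 CPM averaged 2 or more. The Pearson correlations were 0.987 for *Usp53*, 0.969 for *Fbxl18*, 0.962 for *Prdm10*, 0.959 for *Vps37a* and 0.956 for *9130008F23Rik*. These are the highest of many genes over few libraries and share the depth and composition of each library. Of the carboxylesterase genes, *Ces2e* was at 0.452, *Ces1e* at 0.425 and *Ces2g* at 0.418, and the rest ranged from 0.178 for *Ces2b* to 0.313 for *Ces1f*. Thus, within a genotype, the neighbours *Ces2e* and *Ces2g* were not among the genes that varied most like *Ces2f*.

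Since the genes are duplicates, reads can be divided between them. Of the 31-base words in the transcripts of each gene, those found also in another carboxylesterase gene made up 3.49% for *Ces2f*, 7.44% for *Ces2g*, 8.01% for *Ces2e* and 7.34% for *Ces1h*. The figure was 6.34% for *Ces1d*, 2.81% for *Ces1f*, 11.9% for *Ces2b* and 46.3% for *Ces2c*, and words also found in the pseudogene *Ces2d-ps* made up 42.9% of all *Ces2c* words. Words found in genes outside the family made up 29.5% for *Ces2c*, 26.9% for *Ces2a* and 19.4% for *Ces2b*, against 4.30% for *Ces2f*, 6.39% for *Ces2g* and 6.12% for *Ces2e*. A fractional estimated count arises where salmon divided reads between transcripts of different genes, and the estimated counts of *Ces2e* were whole, to within 0.01, in 7 of 8 libraries, those of *Ces2f* in 5, *Ces2g* in 4, and *Ces1h* and *Ces1f* in all 8. They were whole in 2 libraries for *Ces2c* and in 1 library each for *Ces2b* and *Ces1d*. A fractional value does not show how many reads were divided. By words shared within the family *Ces2c* stood highest of the members at 46.3%, while *Ces1d* was at 6.34%.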

How the data were processed

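Libraries were stranded mRNA preparations, sequenced in pairs. After trimming by Trimmomatic, the authors quantified reads by salmon (mm10) and deposited estimated counts per gene without normalization. Versions, annotation release and use of strand are not given in the sources used here. The authors also deposited TPM values, whose near-equal sorted values show quantile normalization, and 1 further column of that table matched no sample and was not used.

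Estimated counts were rounded to whole numbers. Genes passing filterByExpr (minimum count 10, minimum total 15) were normalized by TMM, and genotypes were compared with edgeR 4.0.16 (R 4.3.3) by the quasi-likelihood test with no covariate. The study's thresholds were used (fold at least 2, Benjamini-Hochberg adjusted p at most 0.1). SE were derived from the F statistic, and log2 CPM used a prior count of 2. Identifiers without a symbol held at most 0.00896% of a library's counts. All 20 carboxylesterase identifiers match GENCODE M21 in version. Sequences are RefSeq promoters, and those of the members *Ces1d*, *Ces1f* and *Ces2b* were not matched there and so were not used. The scripts were tested on simulated data.

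Alternatives were DESeq2 1.42.0 (also used by the authors), limma 3.58.1 with voom weights or on log2 TPM, other normalizations and filters, replicate number as a term, and libraries left out. Named genes are the members, other tested carboxylesterases, up to 4 called genes of each list, called neighbours and the 5 genes most like *Ces2f*. Others were named as examples after their values were seen. Members and lists were chosen with earlier results of these data known, so *Ces2f* has no p-value. The smallest exact permutation p for 4 against 4 is 0.0286. The DESeq2 result for the regulators of drug metabolism is not reported here.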

Additional observations from a re-analysis of the deposited data

Results flagged for a closer look

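One value stood apart from its group. In WT endometrium library 2 had 1.82 CPM of *Ces2e* where the other WT libraries had 0.314 to 0.344 CPM. On log2 CPM with a prior count of 2, the gap to the nearest library was 0.952 of the group's range. That ratio is above Dixon's critical value for 4 samples. Of 17 groups of 4 examined this was the only one past that value, and 0.85 would be flagged by chance at 1 in 20. Among the uterine gland markers this library was the highest of the 8 in *Sox17* and *Cxcl15*, at 355.1 and 122.1 CPM, and the lowest in *Ltf* and *Lif*, at 1290 and 2.49 CPM, and the part of these in the *Ces2e* value was not tested. Without this library the log2 fold change of *Ces2e* was 4.83 in place of 3.71.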

How the results depend on the processing

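Of the members, *Ces2g* kept its direction and call in all 19 alternatives (log2 fold change 2.53 to 3.40, adjusted p 8.19e-17 to 0.0414), *Ces2e* lost its call in 8 of 19, and *Ces1f* and *Ces2c* stayed above 0 without a call in all 19. With 1 library left out, log2 fold changes ranged from 3.47 to 4.83 for *Ces2e*, 5.31 to 5.94 for *Ces2f*, 2.85 to 3.31 for *Ces2g*, -0.0115 to 1.67 for *Ces2b* and -0.516 to 0.275 for *Ces1d*, and genes called numbered 81 to 167 in place of 180. The sums of the *Ces2* and *Ces1* clusters then gave 1.43 to 2.67 and -0.52 to 0.265. Leaving out WT libraries 3 and 4 together, an alternative chosen after seeing the data, gave 3.12 for *Ces2e*, 2.12 for *Ces2b*, 0.792 for *Ces1d*, 0.0739 for *Ces1e*, 3 for the *Ces2* sum and 0.729 for the *Ces1* sum. *Ces1d* was at 0.0204 with voom quality weights. On log2 TPM *Ces2f* was at 2.20 with a pseudocount of 1 and 4.47 with 0.1, since its WT values lie below the pseudocounts or near them. *Ces2f* could not be fitted, and *Ces1h* neither, where at least 10 counts were required in every library. DESeq2 called 791 genes, voom with quality weights 311, and the filter of 10 counts in every library 81. Except as given, the cause of these shifts was not tested.

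The labels number the replicates 1 to 4 in each genotype. Deviations of same-numbered libraries from their group means correlated at 0.269, -0.436, 0.34 and -0.159, and 1 of the 4 numbers exceeded its highest correlation with another number. The labels name no pairing, and so few correlations cannot exclude one. With the replicate number as a block, 82 genes were called, *Ces2e* (4.16) and *Ces2g* (3.01) among them, and *Ces1h* had an adjusted p of 0.183 in edgeR's quasi-likelihood test.

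With 4 libraries per genotype, differences of the size seen in *Ces2c* and *Ces1f* did not pass the test. For *Ces1g* and *Ces2a* the depth gives too few counts for a test.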
